A study of Mus musculus with 10 samples.

Results

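The 10 genes described here mark the endothelial cells of brain vessels and the barrier those cells form. They are the vascular endothelial growth factor receptors Flt1 and Kdr, the junction genes Cldn5, Cdh5 and Pecam1, the surface antigen gene Ly6c1, and the transporter genes Slc2a1, Slco1a4, Slco1c1 and Abcb1a. They were chosen by name, and each has 1 row among the 35275 genes of the deposited table. All 10 passed the filter on low values that left 14497 genes for testing. Total RNA came from motor cortex, taken at postnatal day 22 from mice of the C57BL/6 strain. There were 5 libraries from mice whose astrocytes lack membralin through a conditional knockout (KO) and 5 libraries from wild-type mice (WT), so that strain, age and tissue were shared by both groups. Membralin is encoded by Tmem259. Described as biological repeats, the libraries of a genotype are not tied to single animals in the labels, so p-values measure the spread between these libraries. The labels give neither the promoter that drives the deletion nor whether the WT mice carried a floxed allele.

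Brain endothelial cells line the capillaries as a single sealed sheet. Claudin and cadherin junctions close the gaps between neighbouring cells, so that sugars, hormones and amino acids must pass through carriers in the membrane, while efflux pumps return many drugs to the blood. Signals from the surrounding tissue, among them Wnt ligands and vascular endothelial growth factor, maintain this state, and the endfeet of astrocytes cover most of the outer vessel wall. The labels place the deletion in astrocytes and not in endothelial cells. The comparison of KO with WT cortex therefore addresses whether transcripts of the vessel wall differ when the neighbouring astrocytes lack the protein.

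Total fragments per library ranged from 22968013 to 27567361 in KO and from 22793058 to 28827871 in WT. Each of the 10 genes was covered by between 256 and 6571 fragments in every library, so counting error adds to the spread between libraries most where fragments are fewest. The library labelled KO3 held 34.4 FPKM of Tmem259, against 16.9 to 26.2 FPKM in the other 4 KO libraries and 23.8 to 32.4 FPKM in WT, and so went against its label. Results are therefore given with it and without it. Tmem259 itself did not pass between KO and WT with all 10 libraries (log2 fold change -0.27, limma adjusted p = 0.275). KO5, at 26.2 FPKM of Tmem259, also lay inside the WT range. Without the library labelled KO3, which was set aside on this same gene, the log2 fold change of Tmem259 was -0.42 (limma adjusted p = 0.0278). The cortical neuron gene Slc17a7 was at 735 to 960 FPKM in KO and 724 to 817 FPKM in WT. Omp, a marker of the olfactory bulb, was at 5.92, 10.5, 7.95, 8.89 and 0.406 FPKM in KO1 to KO5, against 0.270, 0.259, 3.26, 2.95 and 0.228 FPKM in WT1 to WT5. This marker thus differed between libraries in a way that partly followed genotype. Whether the difference came from dissection or from genotype was not tested. In whole tissue, fewer endothelial cells and less RNA per cell cannot be told apart.

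None of the 10 genes passed the test between KO and WT, where 13.3% of all genes tested did (limma, Benjamini-Hochberg adjusted p under 0.05), 9.77% higher and 3.51% lower in KO. Without the library labelled KO3, 1 of the 10, Flt1, fell, where 26.0% of all genes passed, 19.6% higher and 6.36% lower in KO. An unadjusted p under 0.05 was found for 2 of the 10, Flt1 and Cldn5, and for 32.8% of all genes, 25.1% higher and 7.75% lower. For no gene of the 10 were all KO libraries on one side of all WT libraries, a separation seen in 7.55% of all genes, with KO higher in 5.70% and lower in 1.85%. The fold change estimate was above 0 for 4 genes and below 0 for 6. Its median over the 10 was -0.04 on the log2(FPKM + 1) scale, beside 0.08 over all genes tested. Without the library labelled KO3 these medians were -0.06 and 0.09.

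**Figure D1:**
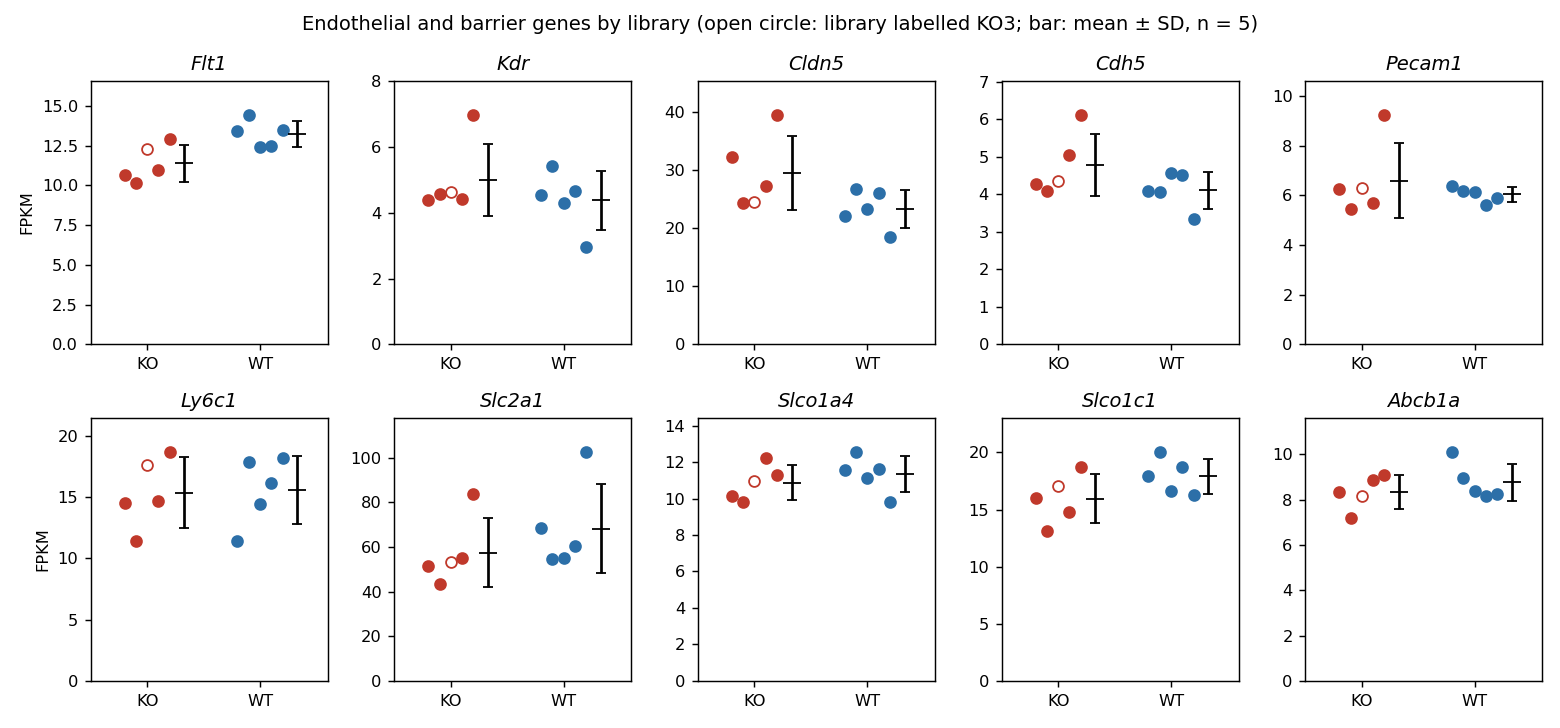
FPKM of the 10 genes in each library, with KO left of WT in every panel. Points are libraries in replicate order, the open circle is the library labelled KO3, and bars give the mean and SD of 5 libraries. Flt1 lay between 10.1 and 12.9 FPKM in KO and between 12.5 and 14.4 FPKM in WT, the nearest of the 10 to a separation, and KO5 was the highest library for 5 of the genes.

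FPKM, fragments per kilobase of gene length scaled to library size, allows levels to be compared between genes. Slc2a1 was the most abundant in both groups, at 57.4 ± 15.5 FPKM in KO and 68.3 ± 19.97 FPKM in WT (SD, n = 5 each), and its range did not touch that of the next gene, Cldn5, in either group. Below it came Cldn5, Slco1c1, Ly6c1, Flt1, Slco1a4, Abcb1a, Pecam1, Kdr and Cdh5, in the same order of means in KO and in WT. Most neighbours in this order overlapped in range: in KO the exceptions were Cldn5 over Slco1c1 and Slco1a4 over Abcb1a, and in WT Abcb1a over Pecam1 and Pecam1 over Kdr.

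Flt1 and Kdr encode the receptors for vascular endothelial growth factor. Kdr carries most of its growth signal, and Flt1 binds the ligand tightly and, in part as a soluble form, limits its supply. Flt1 (ENSMUSG00000029648, mm10 chr5:147561604-147726011, minus strand) measured 10.7, 10.1, 12.3, 11.0 and 12.9 FPKM in KO1 to KO5, against 13.4, 14.4, 12.5, 12.5 and 13.5 FPKM in WT1 to WT5. In 4 of the 5 KO libraries Flt1 lay below every WT library, and KO5 lay between WT libraries. The means were 11.4 ± 1.16 FPKM in KO and 13.3 ± 0.822 FPKM in WT (SD, n = 5 each). The log2 fold change was -0.20 (SE 0.07, 95% interval -0.35 to -0.05) and did not pass over all genes (limma adjusted p = 0.0700). The exact two-sided permutation test of the 2 means gave p = 0.0317, before adjustment, where 0.00794 is the smallest p that 5 libraries against 5 allow. Without the library labelled KO3 the log2 fold change was -0.23 and passed (limma adjusted p = 0.0360). It also passed with median-of-ratios scaling (log2 fold change -0.29, adjusted p = 0.0352), which moves the median of all genes to -0.0023. With a score of olfactory bulb markers fitted beside genotype Flt1 had a log2 fold change of -0.064 (adjusted p = 0.649 in limma), and the exact permutation p adjusted over all genes was 0.134. The estimate was below 0 in the 18 alternatives that re-estimate it.

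Kdr (ENSMUSG00000062960, chr5:75932827-75978458, minus strand) measured 4.39, 4.57, 4.64, 4.43 and 6.97 FPKM in KO1 to KO5, against 4.55, 5.43, 4.30, 4.68 and 2.95 FPKM in WT1 to WT5. KO5 was the highest and WT5 the lowest of all libraries. Of the remaining 8, WT2 was at 5.43 FPKM and the others lay between 4.30 and 4.68 FPKM. The means were 5.0 ± 1.10 FPKM in KO and 4.38 ± 0.905 FPKM in WT (SD, n = 5 each; log2 fold change 0.16, 95% interval -0.14 to 0.45, limma adjusted p = 0.447; 0.18 and adjusted p = 0.407 without the library labelled KO3). With KO5 and WT5 both left out the log2 fold change of Kdr was -0.056 (limma adjusted p = 0.638). The ratio of Flt1 to Kdr, in FPKM, was 2.43, 2.22, 2.66, 2.48 and 1.85 in KO1 to KO5, against 2.95, 2.66, 2.89, 2.66 and 4.58 in WT1 to WT5. In 4 of 5 KO libraries the ratio was below that of every WT library, and the library labelled KO3 lay level with WT2 and WT4, a description chosen after the levels were seen and not tested. Vegfa, the ligand of both receptors and likewise picked after its values were seen, measured 10.3 ± 1.64 FPKM in KO and 11.6 ± 0.841 FPKM in WT (SD, n = 5 each; log2 fold change -0.17, limma adjusted p = 0.217).

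**Figure D2:**
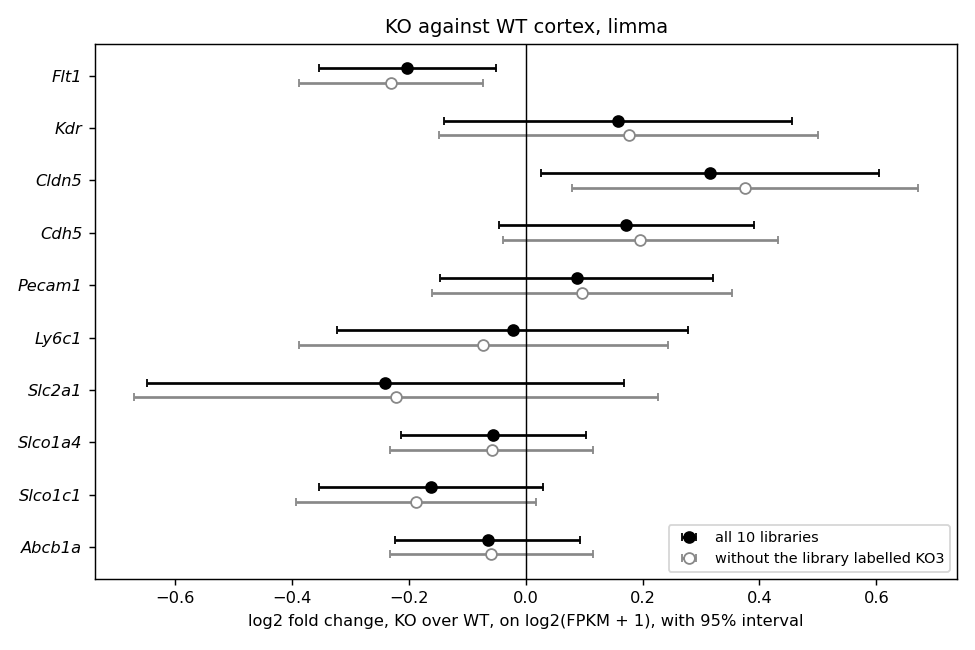
Log2 fold change of KO over WT for each gene on the log2(FPKM + 1) scale, with 95% intervals from limma. Filled points use all 10 libraries and open points leave out the library labelled KO3. The intervals of Flt1 and Cldn5 exclude 0 before adjustment over all genes, and those of the other 8 genes include it.

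The promoters of Flt1, Kdr and Cldn5 are shown because the first 2 genes encode receptors of 1 ligand with estimates of opposite sign, and because Kdr and Cldn5 varied together most closely among the 10. The 250 bases before the start are given 5′ to 3′ on the gene's own strand, from RefSeq on GRCm38.p6, at chr5:147726012-147726261 (minus) for Flt1, chr5:75978456-75978705 (minus) for Kdr and chr16:18776597-18776846 (plus) for Cldn5. Capitals mark the core motifs of ETS transcription factors, CCGGAA and AGGAAG on either strand, which do not overlap here.
Flt1: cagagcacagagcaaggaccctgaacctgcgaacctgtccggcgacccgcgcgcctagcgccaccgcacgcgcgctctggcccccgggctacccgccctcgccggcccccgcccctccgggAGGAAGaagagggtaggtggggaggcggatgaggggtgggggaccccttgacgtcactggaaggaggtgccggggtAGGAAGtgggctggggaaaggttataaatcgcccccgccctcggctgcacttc
Kdr: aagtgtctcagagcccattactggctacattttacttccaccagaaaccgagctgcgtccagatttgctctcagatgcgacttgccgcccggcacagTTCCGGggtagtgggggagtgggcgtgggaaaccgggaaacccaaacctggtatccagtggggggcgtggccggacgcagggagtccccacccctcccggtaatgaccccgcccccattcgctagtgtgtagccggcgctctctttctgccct
Cldn5: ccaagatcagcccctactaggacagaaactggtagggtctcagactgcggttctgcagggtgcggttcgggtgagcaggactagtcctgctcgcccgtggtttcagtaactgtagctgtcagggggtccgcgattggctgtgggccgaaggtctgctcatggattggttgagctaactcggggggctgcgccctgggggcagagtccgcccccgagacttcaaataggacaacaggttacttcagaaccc
Flt1 held AGGAAG at 2 places, Kdr held CCGGAA on the opposite strand at 1 place, and Cldn5 held neither. Of the 10 genes, 8 had a promoter in the RefSeq table, and Ly6c1 had 2, which share part of their bases. One or the other ETS core stood in 6 of these 9 promoters, where 38.2% of all 32851 promoters of that length held one. The Abcb1a promoter, among the 6, was at chr5:8566841-8567090, well before the deposited gene start at 8660077. GGGCGG, the core bound by SP1, stood in 4 of the 9 and in 32.7% of all promoters. ACGTG, the hypoxia response core, stood in 1, that of Slc2a1, and in 16.6% of all. TATAAA stood in 2 of the 9 and in 12.4% of all promoters, and ATCAAAG, bound by the LEF and TCF factors of Wnt signalling, in 0 of the 9 and in 3.21% of all. A match describes the letters and shows no binding.

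Cldn5, Cdh5 and Pecam1 encode proteins of the contacts between endothelial cells. Cldn5, the claudin that seals brain capillaries against small molecules, (ENSMUSG00000041378, chr16:18776847-18778260, plus strand) measured 32.2, 24.3, 24.4, 27.3 and 39.4 FPKM in KO1 to KO5, against 22.1, 26.7, 23.2, 26.0 and 18.5 FPKM in WT1 to WT5. KO1, KO4 and KO5 lay above every WT library, while KO2 and KO3 lay inside the WT range. The means were 29.5 ± 6.40 FPKM in KO and 23.3 ± 3.30 FPKM in WT (SD, n = 5 each). The log2 fold change of Cldn5 was 0.32 (SE 0.13, 95% interval 0.03 to 0.60) and did not pass (limma adjusted p = 0.122; exact permutation p = 0.0873). The limma estimate for Cldn5 was 0.38 (adjusted p = 0.0605) when the library labelled KO3 was left out, and 0.13 (adjusted p = 0.397) when KO5 and WT5 were.

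Cdh5, the cadherin of endothelial adherens junctions, (ENSMUSG00000031871, chr8:104101625-104144502, plus strand) measured 4.29, 4.08, 4.36, 5.05 and 6.11 FPKM in KO1 to KO5, against 4.09, 4.06, 4.56, 4.51 and 3.33 FPKM in WT1 to WT5. KO4 and KO5 lay above every WT library and the other KO libraries inside the WT range. Its log2 fold change was 0.17 (95% interval -0.05 to 0.39, limma adjusted p = 0.253; 0.20 and adjusted p = 0.198 without the library labelled KO3), and 0.04 with KO5 and WT5 left out. Pecam1, a homophilic adhesion molecule of endothelium that platelets and some leukocytes also carry, (ENSMUSG00000020717, chr11:106654217-106750628, minus strand) measured 6.26, 5.46, 6.31, 5.69 and 9.22 FPKM in KO1 to KO5, against 6.39, 6.19, 6.15, 5.61 and 5.90 FPKM in WT1 to WT5. Only KO5 lay above the WT range, and the means were 6.59 ± 1.52 FPKM in KO and 6.05 ± 0.297 FPKM in WT (SD, n = 5 each). The log2 fold change of Pecam1 was 0.09 (95% interval -0.15 to 0.32, limma adjusted p = 0.605; 0.10 and adjusted p = 0.577 without the library labelled KO3) and -0.025 without KO5. Its sign also turned with quantile normalization (log2 fold change -0.011).

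Ly6c1, a small surface antigen anchored by a lipid tail, marks much of the mouse brain endothelium (ENSMUSG00000079018, chr15:75044018-75048830, minus strand). It measured 14.5, 11.4, 17.6, 14.7 and 18.7 FPKM in KO1 to KO5, against 11.4, 17.9, 14.5, 16.1 and 18.2 FPKM in WT1 to WT5. Both groups spread over almost the same range, and the log2 fold change was -0.02 (95% interval -0.32 to 0.28, limma adjusted p = 0.927; -0.07 and adjusted p = 0.744 without the library labelled KO3). Ly6c1 has close copies. Of the 50-base windows of its transcripts in GENCODE release M21, 21.5% also occur in Ly6c2 and 11.1% in Ly6a. Ly6c2, a gene of monocytes, averaged 0.0212 FPKM in KO and 0.00608 FPKM in WT, and Ly6a 6.37 FPKM in KO and 5.99 FPKM in WT, so the level of Ly6c1 is uncertain to the extent that reads were divided with Ly6a.

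The 4 transporter genes all had lower means in KO than in WT, and none passed the test. Slc2a1 encodes GLUT1, which carries glucose across the barrier and is also made by astrocytes (ENSMUSG00000028645, chr4:119108711-119137330, plus strand). It measured 51.6, 43.2, 53.1, 55.2 and 84.0 FPKM in KO1 to KO5, against 68.5, 54.6, 55.2, 60.5 and 103 FPKM in WT1 to WT5. KO5 and WT5 were far above the rest of their groups, and 3 KO libraries lay below every WT library. Gm12868 and Gm12867 overlap the gene on the opposite strand, at no more than 2.05 FPKM. The log2 fold change of Slc2a1 was -0.24 (SE 0.19, 95% interval -0.65 to 0.17, limma adjusted p = 0.395), the widest interval of the 10 genes, and -0.22 (adjusted p = 0.449) without the library labelled KO3. Leaving out KO5 gave a log2 fold change of -0.39 (limma adjusted p = 0.145), leaving out WT5 gave -0.085 (adjusted p = 0.746), and leaving out both gave -0.23 (adjusted p = 0.150).

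Slco1c1, a carrier of thyroxine that capillaries, choroid plexus and astrocytes use, (ENSMUSG00000030235, chr6:141524386-141570177, plus strand) measured 16.0, 13.1, 17.1, 14.8 and 18.8 FPKM in KO1 to KO5, against 17.9, 20.03, 16.6, 18.7 and 16.2 FPKM in WT1 to WT5. KO1, KO2 and KO4 lay below every WT library. Its log2 fold change was -0.16 (95% interval -0.35 to 0.03, limma adjusted p = 0.221; -0.19 and adjusted p = 0.159 without the library labelled KO3). Slco1a4, a carrier of organic anions at both faces of the capillary wall, (ENSMUSG00000030237, chr6:141805440-141856199, minus strand) measured 10.1, 9.80, 10.9, 12.2 and 11.3 FPKM in KO1 to KO5, against 11.6, 12.5, 11.1, 11.6 and 9.83 FPKM in WT1 to WT5. The groups overlapped over almost their whole range, and its log2 fold change was -0.06 (95% interval -0.21 to 0.10, limma adjusted p = 0.632; -0.06 and adjusted p = 0.620 without the library labelled KO3). Slco1a4 shares 1.56% of its 50-base windows with Slco1a5, the closest of the 3 paralogs compared.

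Abcb1a encodes P-glycoprotein, the efflux pump that returns many drugs to the blood (ENSMUSG00000040584, chr5:8660077-8748575, plus strand). It measured 8.36, 7.21, 8.14, 8.85 and 9.11 FPKM in KO1 to KO5, against 10.1, 8.96, 8.39, 8.14 and 8.24 FPKM in WT1 to WT5. Only KO2 lay below every WT library. The log2 fold change of Abcb1a was -0.07 (95% interval -0.22 to 0.09, limma adjusted p = 0.566; -0.06 and adjusted p = 0.617 without the library labelled KO3). As folds of FPKM + 1, its interval ran from 0.856 to 1.07, and that of Slco1a4 from 0.862 to 1.07. Abcb1b, which shares 16.3% of the windows of Abcb1a, averaged 0.635 FPKM in KO and 0.514 FPKM in WT.

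The 10 genes tended to be high or low together in a library. After each group was centred on its own mean, 43 of the 45 pairs among the 10 genes had a Pearson r above 0 over the 10 libraries, with a median of 0.54. The pairs share library depth and tissue makeup, so this is a description. Kdr and Cldn5 varied most closely together (r = 0.82), and Slc2a1 and Slco1a4 least (r = -0.19). KO5 was the highest of all 10 libraries for 5 genes, Kdr, Cldn5, Cdh5, Pecam1 and Ly6c1, and above the WT mean for 8. KO2 was the lowest for 7 genes, Flt1, Pecam1, Ly6c1 and all 4 transporters, and WT5 the lowest for the other 3, Kdr, Cldn5 and Cdh5, while it was the highest for Slc2a1.

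**Figure D3:**
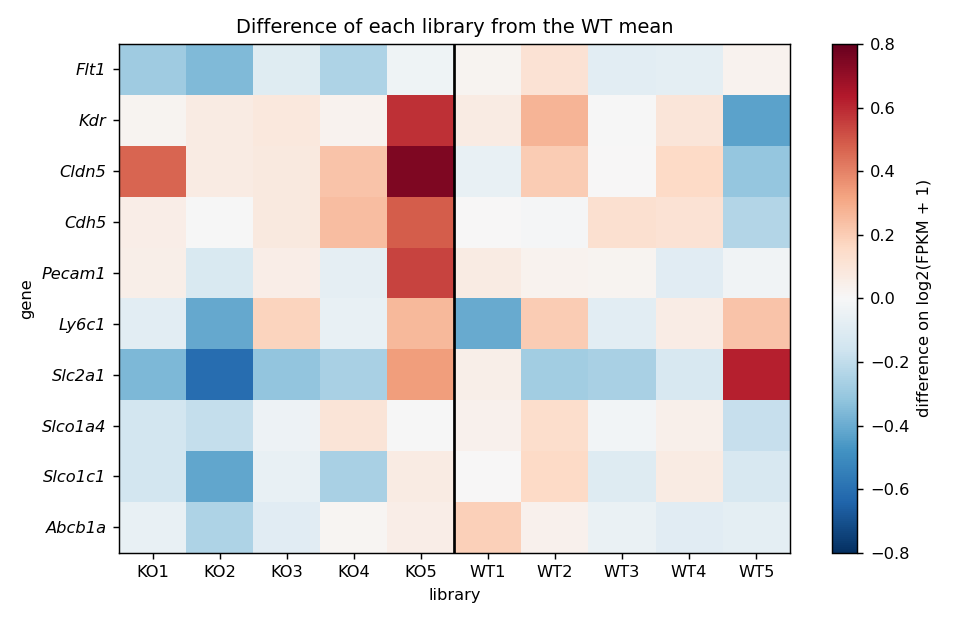
Difference of each library from the WT mean on the log2(FPKM + 1) scale, for the 10 genes in rows and the 10 libraries in columns, KO left of the line and WT right of it. Red is higher and blue lower than the WT mean. KO5 was above the WT mean for 8 of the 10 genes and KO2 for 2.

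Some marker sums of other cells and tissue also stood out in KO5 and KO2. KO5, high for the junction genes, also had the highest summed level of the pericyte and smooth muscle list, 159 FPKM, against 117 to 127 FPKM in the other KO libraries and 110 to 122 FPKM in WT. It was likewise highest for the fibroblast list, 146 FPKM, and for the astrocyte endfoot list, 1043 FPKM. WT5, lowest for Kdr, Cldn5 and Cdh5, had the next highest endfoot sum, 1006 FPKM. Sums of the choroid plexus and ependyma list ran from 13.5 FPKM in KO3 to 190 FPKM in KO1, and from 26.2 to 143 FPKM in WT. KO2, low for the transporters, had the lowest sum of the endfoot list, 870 FPKM. That sum does not stand for each gene of the list. Aqp4, Mlc1 and Dag1, at 47.9, 52.6 and 38.7 FPKM in KO2, were above every WT library. KO2 also had the highest summed myeloid level, 118 FPKM. Its summed level of the 7 olfactory bulb markers was the highest too. That was 63.4 FPKM, against 11.8 to 44.7 FPKM in the other KO libraries and 4.52 to 29.7 FPKM in WT. All 7 of these markers passed the filter on low values. In both genotypes the libraries with the lowest Omp had the highest Flt1, which was 12.9 FPKM in KO5 and 13.4, 14.4 and 13.5 FPKM in WT1, WT2 and WT5. Omp was 5.92 to 10.5 FPKM in KO1 to KO4, against 3.26 and 2.95 FPKM in WT3 and WT4, and 0.406 FPKM in KO5, against 0.228 to 0.270 FPKM in the other WT libraries. KO1 to KO4 thus had more Omp than any WT library, while KO5 lay within the WT range. In the summed bulb markers KO1, at 32.6 FPKM, was near WT3, at 29.7 FPKM, with Flt1 at 10.7 and 12.5 FPKM. Such comparisons of single libraries do not tell genotype and bulb tissue apart for Flt1. With the bulb score fitted beside genotype no gene of the 10 passed in limma. The log2 fold changes nearer to 0 than without the score were those of Flt1 (-0.064), Slco1c1 (-0.015) and Slco1a4 (-0.031), with adjusted p = 0.649, 0.950 and 0.890. Those farther above 0 were Cldn5 (0.47), Kdr (0.30), Pecam1 (0.31) and Cdh5 (0.22), with adjusted p = 0.160, 0.365, 0.152 and 0.381. Slc2a1 (0.18), Ly6c1 (0.15) and Abcb1a (0.055) turned sign, with adjusted p = 0.598, 0.655 and 0.746. In that limma fit 0 genes of the whole table passed, and 3064 had an unadjusted p under 0.05. With the library labelled KO3 also left out 1742 genes passed, none of them among the 10, and the log2 fold change of Flt1 was -0.089 (adjusted p = 0.409).

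**Figure D4:**
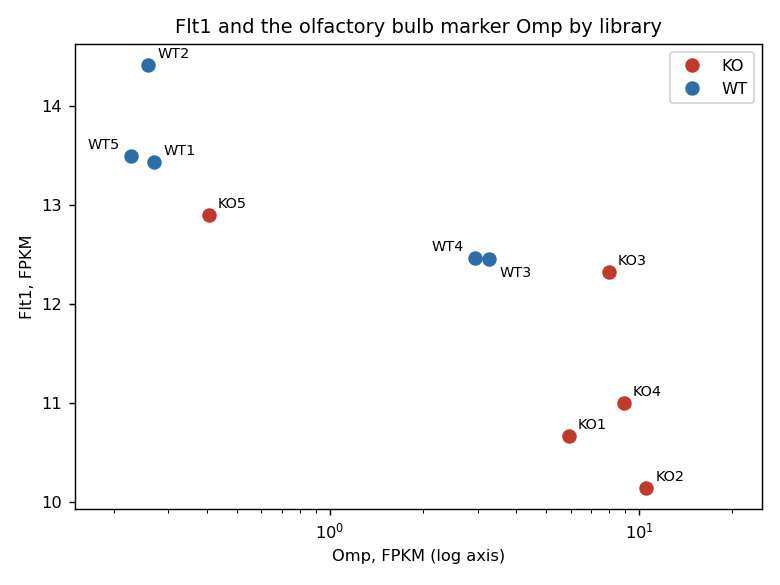
Flt1 in FPKM against Omp, a marker of the olfactory bulb, in FPKM on a log axis, for the 5 KO and 5 WT libraries. Libraries with low Omp had high Flt1 in both genotypes. KO1 to KO4 had the highest Omp, 5.92 to 10.5 FPKM, and the lowest Flt1, 10.1 to 12.3 FPKM.

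Genes beyond the 10 with the most similar variation were ranked by their mean r to the 10 genes within groups, over 10 libraries and 12898 genes of at least 1 FPKM. Among the highest were Jag1 (mean r 0.69), a Notch ligand, Carm1 (0.68), an arginine methyltransferase, Npas3 (0.68), a transcription factor, and Slc38a5 (0.67), a glutamine carrier of the barrier. None of these 4 passed between KO and WT, and Jag1 came closest (log2 fold change 0.24, limma adjusted p = 0.0642).

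Other genes of the vessel wall were read from lists by role, to be set beside the 9.77% of all genes called higher, the 3.51% called lower and the median of 0.08 over all genes. Of 27 further endothelial receptor and junction genes tested 0 rose and 1 fell, and the median log2 fold change was -0.01. The one that fell was Cd34, a sialomucin of endothelial and progenitor cells. Cd34 measured 10.7, 7.14, 15.3, 8.52 and 10.1 FPKM in KO1 to KO5, against 15.6, 15.1, 15.8, 16.2 and 18.5 FPKM in WT1 to WT5. The library labelled KO3 lay inside the WT range and the other 4 KO libraries below it (log2 fold change -0.64, SE 0.15, limma adjusted p = 0.0234). Without that library the log2 fold change of Cd34 was -0.78 (adjusted p = 0.000439). Jam2, a junctional adhesion molecule, and Lsr, a protein of corners between 3 cells, did not pass (log2 fold change 0.16 and 0.27, adjusted p = 0.109 and 0.150).

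Of 24 further barrier transporters and carriers 2 rose and 0 fell, with a median log2 fold change of 0.12. The 8.33% that rose is near the share of all genes. Slc16a1, the monocarboxylate carrier of lactate and ketones, measured 12.6, 12.4, 8.59, 15.1 and 11.6 FPKM in KO1 to KO5, against 8.09, 9.17, 8.38, 9.80 and 6.73 FPKM in WT1 to WT5. All KO libraries but the one labelled KO3 were above all WT libraries (log2 fold change 0.46, SE 0.13, limma adjusted p = 0.0359). Itm2a, a membrane protein of brain vessels, rose to 22.9 ± 2.11 FPKM in KO, against 19.3 ± 1.39 FPKM in WT (SD, n = 5 each; log2 fold change 0.23, adjusted p = 0.0467). Slc22a8, an organic anion carrier, was just outside the threshold (log2 fold change 0.29, adjusted p = 0.0506). Without the library labelled KO3, 7 of the 24, or 29.2%, rose and 0 fell, where 19.6% of all genes were called higher and 6.36% lower.

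Of 20 ligands, co-receptors and regulators of vessel growth 1 rose and 1 fell, with a median of 0.11. Apln, the apelin peptide of endothelial tip cells, which neurons also make, fell to 5.09 ± 1.37 FPKM in KO, against 8.38 ± 1.95 FPKM in WT (SD, n = 5 each; log2 fold change -0.63, SE 0.15, limma adjusted p = 0.0270). Angpt1, a ligand of the Tek receptor that stabilizes vessels, rose to 1.41 ± 0.330 FPKM in KO, against 0.791 ± 0.189 FPKM in WT (log2 fold change 0.43, adjusted p = 0.0326). Of 20 genes of the Wnt and beta-catenin programme, which instructs the barrier, 4 rose and 0 fell, with a median of 0.16. Wnt7b, a ligand made by neurons and glia, measured 17.8, 15.2, 12.5, 16.2 and 18.9 FPKM in KO1 to KO5, against 12.6, 11.8, 11.5, 13.6 and 10.9 FPKM in WT1 to WT5. The library labelled KO3 again lay inside the WT range (log2 fold change 0.38, SE 0.10, adjusted p = 0.0297). The others that rose were Tspan12, a partner of the Fzd4 receptor (log2 fold change 0.24), Apcdd1, a Wnt inhibitor (0.45), and Ctnnb1, which encodes beta-catenin (0.19), with adjusted p = 0.0260, 0.0350 and 0.0464. With median-of-ratios scaling, Wnt7b, Tspan12, Apcdd1, Ctnnb1, Slc16a1 and Itm2a did not pass, nor did Mlc1, Aif1, Ptprc and Foxj1, described next.

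Of 16 listed genes of activated or leaky endothelium, Sele, Selp, Lcn2, Ch25h and Mmp9 fell below the filter on low values. Of the 11 tested 2 rose and 0 fell. These were Icam1, which leukocytes grip, with 1.68 ± 0.541 FPKM in KO and 0.755 ± 0.157 FPKM in WT, and Cd74, which myeloid cells also make, with 6.52 ± 2.27 FPKM in KO and 1.88 ± 0.546 FPKM in WT (SD, n = 5 each; limma adjusted p = 0.0234 and 0.0180). Cav1, the coat protein of caveolae, was just outside the threshold (log2 fold change 0.32, adjusted p = 0.0505). Without the library labelled KO3 it passed (log2 fold change 0.40, limma adjusted p = 0.00763). In that fit 6 of the 11, or 54.5%, rose and 0 fell, where 19.6% of all genes were called higher. Plvap, the diaphragm protein of leaky vessels, picked after its values were seen, averaged 0.951 ± 0.259 FPKM in KO and 1.36 ± 0.476 FPKM in WT and did not pass (log2 fold change -0.26, adjusted p = 0.207). Of 17 pericyte and smooth muscle genes 1 rose, Anpep, a peptidase of pericytes (log2 fold change 0.39, adjusted p = 0.0258), and 0 fell. Tagln and Rgs5, of smooth muscle and pericytes, had log2 fold changes of 0.56 and 0.16 and did not pass (adjusted p = 0.134 and 0.178).

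Genes of cells around the vessel were read in the same way. Of 12 genes of meningeal and perivascular fibroblasts 7 rose and 0 fell, with a median log2 fold change of 0.55 and with Aldh1a2, a retinoic acid enzyme, higher by 1.01 (limma adjusted p = 0.0186). Slc22a6, an organic anion carrier, and Ogn, a matrix proteoglycan, rose by 0.47 and 0.58 on the log2 scale (adjusted p = 0.0260 and 0.0266). Of 14 astrocyte endfoot genes 2 rose and 0 fell: Aqp4, the water channel of the endfoot, with 49.0 ± 12.9 FPKM in KO and 29.4 ± 1.64 FPKM in WT, and Mlc1, with 53.1 ± 4.96 FPKM in KO and 44.1 ± 4.46 FPKM in WT (SD, n = 5 each; adjusted p = 0.0290 and 0.0454). Dag1, the dystroglycan that anchors the endfoot, did not pass (log2 fold change 0.17, adjusted p = 0.0549). Of 10 myeloid genes 4 rose and 0 fell, which were Lyz2, Cd68, Aif1 and Ptprc, with log2 fold changes of 1.47, 0.66, 0.53 and 0.36. Of 9 choroid plexus and ependymal genes 1, Foxj1, a regulator of cilia, rose (log2 fold change 0.50, adjusted p = 0.0453), and of 5 blood genes none passed, or had an unadjusted p under 0.05, in limma. Of 7 olfactory bulb markers 1, Th, the enzyme of dopamine synthesis, rose (log2 fold change 1.71, adjusted p = 0.0186). All 7 bulb markers had estimates above 0, from 0.66 to 1.71, 6 had an unadjusted p under 0.05, and their median of 1.07 was the highest of all the lists. Without the library labelled KO3, 10 fibroblast, 4 endfoot and 5 myeloid genes rose. In all these lists beyond the 10 genes 27 of 176 genes tested were called, or 15.3% beside 13.3% of all genes. Without the library labelled KO3 it was 48, or 27.3% beside 26.0%, and 0 were called without KO2, without KO4 or without WT1. The part of these cells in the levels of the 10 genes was not tested.

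**Figure D5:**
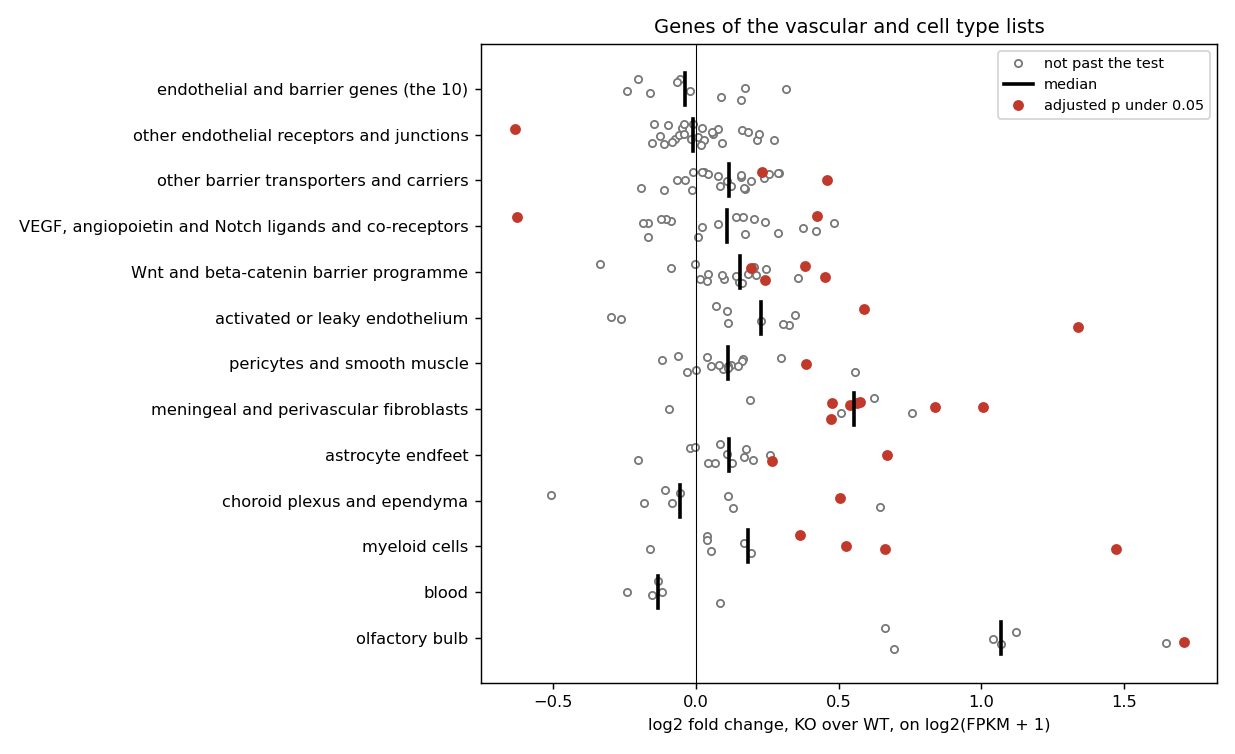
Log2 fold change of KO over WT on the log2(FPKM + 1) scale for every gene tested in each list, 1 list per row with the 10 endothelial and barrier genes on top. Filled red points passed (adjusted p under 0.05), open points did not, and the black line is the median. The 10 genes had a median of -0.04 with 0 called, the fibroblast list a median of 0.55 with 7 of 12 called, and the olfactory bulb list the highest median, 1.07, with 1 of 7 called.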

How the data were processed

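The deposited table holds 1 FPKM value per gene and library (fragments per kilobase of gene length, scaled to library size), with gene length and coordinates, per the file headers. Gene length, another column the authors deposited, is in bases. The build mm10 and the tool DESeq2 are listed, without a stated use, per the submitters' processing notes. The aligner, the counting step and its strand setting were not given in the sources used here. FPKM times gene length gave whole fragments, within 0.02, for 100% of the values above 0, which gave the totals per library.

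Groups and replicate numbers came from the sample titles. The genotypes were compared, KO over WT, with limma 3.58.1 (R 4.3.3; lmFit, eBayes with trend) on log2(FPKM + 1), for genes averaging 0.5 FPKM or more, genotype alone, two-sided, Benjamini-Hochberg adjusted p under 0.05. Fold changes on this scale understate the change of low genes. Exact permutation tests used 252 assignments. The fit was tested on simulated counts with the same spread for every gene (dispersion 0.006) and no effect shared within a library. There it called 86.4% of genes changed 1.5-fold. Such counts leave out the tissue differences between these libraries, so the test does not show how the fit behaves with them.

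One gene ranked by similar variation is not reported here. Genes of the other lists were named as the 3 with the lowest p, and all called where 5 or fewer; blood, choroid and bulb genes only where called. The 10 genes and the lists were chosen with earlier results of these data known. Lists are described by counts and medians. Slc2a1, Tmem259, Cd34, Lsr, Angpt1, Wnt7b, Ctnnb1, Icam1, Cav1, Tagln and Ogn overlap a gene on the opposite strand, whose reads may not be told apart. Alternatives covered pseudocount, filter, scaling, variance model, weights, a replicate block, recovered fragments, a bulb score, each library left out, threshold and test.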

Additional observations from a re-analysis of the deposited data

Results flagged for a closer look

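A library lay apart from the other 4 of its group in 6 of 84 groups of values examined, of which 20 were groups of the 10 endothelial and barrier genes, where chance flags about 1 in 20. KO5 was apart for Kdr, at 6.97 FPKM, and for Pecam1, at 9.22 FPKM, in both as the highest KO library. WT5 was apart for Slc2a1, at 103 FPKM, and for Apln, at 11.8 FPKM, in both as the highest WT library. KO5 was also the highest KO library, and apart, for the smooth muscle gene Tagln, at 16.2 FPKM. The library labelled KO3 was the lowest KO library, and apart, for the myeloid gene Cd68, at 4.24 FPKM.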

How the results depend on the processing

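The 10 genes were refitted under 24 alternatives. Flt1 was the 1 of the 10 called with an adjusted p under 0.1, with library weights, with median-of-ratios scaling, with quantile normalization and in 2 of the fits that leave out a library, without KO3 and without KO5 (range 0 to 1 gene called). In the remaining 18 alternatives 0 of the 10 were called, and 6 alternatives leave every estimate as it was. In the other 18 the direction of Flt1, Cldn5, Cdh5, Slco1a4 and Slco1c1 held, and 13 of 180 values for the 10 genes turned sign, none of a called gene. With a bulb score in the fit the log2 fold changes that turned were those of Abcb1a (0.055, and 0.056 with the library labelled KO3 left out), Ly6c1 (0.15 and 0.11) and Slc2a1 (0.18 and 0.18). Ly6c1 also turned without KO2 (0.074), WT2 (0.028) or WT5 (0.034), with a range of -0.12 to 0.074 when 1 library was left out. Pecam1 turned without KO5 (-0.025; range -0.025 to 0.14) and with quantile normalization (-0.011). With KO5 and WT5 left out, an alternative chosen after seeing the data, Kdr (-0.056) and Pecam1 (-0.032) turned. The causes were not tested.

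Over all genes 1926 were called. The count was 3546 with an adjusted p under 0.1, 3557 with library weights, 465 without a filter, 1271 with a replicate block and between 2 and 3763 with 1 library left out: 2 without KO2, KO4 or WT1, 576 without KO1, 987 without KO5, 847 without WT5, 1186, 1229 and 1263 without WT2, WT3 and WT4, and 3763 without KO3. It was 0 with the bulb score, where 3064 genes had an unadjusted p under 0.05, with KO5 and WT5 left out, where 3868 did in limma, and in exact permutation tests per gene, where 4381 did. Scaling by median of ratios gave 608 genes higher and 945 lower in KO, and quantile normalization 615 and 783, against 1417 and 509. In the other lists 27 genes were called, and 47 with an adjusted p under 0.1, 48 with weights, 15 with median-of-ratios scaling, 10 with quantile normalization, 4 without a filter, 0 with the bulb score, in permutation tests or with KO5 and WT5 left out, and 0 to 48 with 1 library left out. The deviations of same-numbered libraries correlated at -0.06 to 0.14, over 0.1 in 3 of 5 pairs, and 2 of 5 KO libraries correlated best with their own number, so the numbers were not taken to pair the libraries. Under the replicate block no gene of the 10 was called. Slc2a1, lower in KO in all 5 same-numbered pairs, came nearest, with an SE of 0.062 against 0.19 without the block and a limma adjusted p of 0.0519 against 0.395.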
